A study of Mus musculus with 89 samples.

Results

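Genes that mark the midbrain, hindbrain and diencephalon were followed in the forebrain of 89 mouse embryos at E18.5, from 2 colonies of Down syndrome model mice. The list held 43 genes whose best known expression lies outside the telencephalon, and each was read from the probe set that carries its symbol alone. Of these genes, 39 had such a probe set among the 22206 probe sets of the Clariom S array, and Gata3, Hoxb4, Hoxd3 and Fev were not analysed here. The genes served as a gauge of how much non-telencephalic tissue each sample held, across the 4 genotype groups and from embryo to embryo. The groups were 23 Ts65Dn embryos with 18 EupTs65Dn embryos from 6 litters, and 24 Ts66Yah embryos with 24 EupTs66Yah embryos from 6 other litters. Ts65Dn carries an extra chromosome with the distal part of mouse chromosome 16 and a proximal piece of chromosome 17 that has no counterpart on human chromosome 21. Ts66Yah carries the same chromosome 16 segment without the chromosome 17 piece, and the Eup groups are the euploid embryos of each colony. Per the labels, all groups shared a mixed B6 and C3H background. Ts65Dn dams were trisomic, because the males are infertile, and were mated with B6EiC3Sn.BLiAF1/J males. The Ts66Yah line came from 3 founder females and was expanded by in vitro fertilisation with sperm of Ts66Yah males. The labels name the tissue forebrain and describe dissection of the brain hemispheres, with each array holding the RNA of 1 embryo.

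The vertebrate brain is divided early into territories that keep their own transcription factors. En1, En2, Pax2, Pax5 and Pax8 are set up around the isthmus, the organizer at the boundary of midbrain and hindbrain, while Hox genes are used in the hindbrain and spinal cord but not in the forebrain. Neurons that make serotonin, noradrenaline or glycine have their cell bodies largely in the brainstem, the dopamine neurons of the substantia nigra lie in the ventral midbrain, and the thalamus, pretectum and hypothalamus form the diencephalon and its ventral neighbour. Most of these genes are little used in the cerebral hemispheres at this age, and their array signals are compared here between embryos and not between genes.

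The promoters of 4 genes on which the results turn are shown, as the 250 bases before the annotated start in RefSeq on GRCm38.p6. Capitals mark TAAT or its reverse complement, the core that homeodomain proteins recognise, and TGACAG, a core known for Meis and Pknox cofactors of Hox proteins. Both strands were searched.
Hoxa2: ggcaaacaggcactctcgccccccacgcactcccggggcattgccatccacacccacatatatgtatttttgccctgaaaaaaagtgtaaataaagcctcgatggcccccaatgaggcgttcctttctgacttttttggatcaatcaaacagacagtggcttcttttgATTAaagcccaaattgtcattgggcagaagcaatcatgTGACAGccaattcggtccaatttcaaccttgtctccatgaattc
Slc6a5: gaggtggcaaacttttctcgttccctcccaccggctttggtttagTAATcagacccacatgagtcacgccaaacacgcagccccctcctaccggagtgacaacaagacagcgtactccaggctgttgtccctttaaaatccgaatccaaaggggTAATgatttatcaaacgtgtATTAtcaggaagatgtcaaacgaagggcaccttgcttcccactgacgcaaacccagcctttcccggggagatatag
Irx2: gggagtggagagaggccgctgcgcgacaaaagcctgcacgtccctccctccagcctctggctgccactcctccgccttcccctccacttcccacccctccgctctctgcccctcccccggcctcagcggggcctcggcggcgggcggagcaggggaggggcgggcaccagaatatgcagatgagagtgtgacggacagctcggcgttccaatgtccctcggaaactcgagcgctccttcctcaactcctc
Tfap2b: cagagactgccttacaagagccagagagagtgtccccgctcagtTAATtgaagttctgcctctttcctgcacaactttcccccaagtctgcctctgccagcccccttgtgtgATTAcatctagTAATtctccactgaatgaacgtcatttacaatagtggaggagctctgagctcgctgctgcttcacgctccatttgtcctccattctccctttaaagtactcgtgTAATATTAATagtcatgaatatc
Hoxa2 and Slc6a5 are shown because their levels were among the most closely correlated of the list across embryos of the Ts66Yah colony, Irx2 because 8 of the 20 probe sets nearest to it there were listed genes, and Tfap2b for the largest difference between the colonies. The Hoxa2 window is chr6:52164832-52165081 on the minus strand, with 1 TAAT match, 1 TGACAG match and a GC content of 46.4%. The Slc6a5 window is chr7:49910049-49910298 on the plus strand, from the first of 2 listed starts, with 3 TAAT matches and 50.4% GC. The Irx2 window, chr13:72628570-72628819 on the plus strand, had 0 matches to either motif and 68.4% GC. The Tfap2b window, chr1:19211804-19212053 on the plus strand, had 6 TAAT matches counted over both strands, some of them overlapping, and 46.4% GC. TAAT occurred in 54.9% of 32851 mouse promoter windows of the same length and TGACAG in 15.9%, and the median window had 52.4% GC. A match describes letters and not binding. Of the 43 listed genes, 38 had a promoter entry.

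Values are the submitters' log2 signals, given on 2 scales. Within a colony they were used as deposited. Between colonies they were first quantile normalized over all 89 arrays, because deposited values were mostly lower in EupTs65Dn. The median over probe sets of the difference in group means (EupTs65Dn minus EupTs66Yah) was -1.05 in log2. Colony, array run and any separate normalization by the submitters cannot be told apart, and in bulk tissue fewer cells of a type and less RNA per cell cannot be told apart either. Embryos of a litter share a dam, and p-values measure the spread between embryos. Array SD lay between 2.23 and 2.53 except for EupTs66Yah replicate 16 at 1.13, so results that rest on it are also given without it. The Y-linked probe sets went against the labelled sex on 17 arrays, and the mean of the triplicated chromosome 16 genes lay nearer to the other genotype on 4 arrays, of which 1 was in both counts. Telencephalic markers were present in every sample, with a mean of 24 genes from 7.35 to 7.76 in Ts65Dn embryos, from 7.44 to 7.70 in EupTs65Dn embryos, from 8.01 to 8.47 in Ts66Yah embryos and from 7.88 to 8.47 in EupTs66Yah embryos without replicate 16 (6.31), all as deposited.

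The euploid embryos of the 2 colonies differed in most of the regional genes. After quantile normalization, 26 of 39 genes were lower in EupTs65Dn than in EupTs66Yah embryos at an adjusted p under 0.1 (limma, Benjamini-Hochberg over all probe sets), where 17.3% of all probe sets were lower. Another 3 genes, Gbx2, Avp and Tal2, were higher in EupTs65Dn, where 19.8% of all probe sets were higher. The median difference over the 39 genes was -0.82 (log2, EupTs65Dn minus EupTs66Yah), against 0.011 over all probe sets, and -0.72 without EupTs66Yah replicate 16. Ordered over all 22206 probe sets by difference, 11 of the 39 genes stood among the lowest 25 and 16 among the lowest 100, while 0 stood among the highest 25. The genes were listed with earlier results of these data known, so these ranks are a description. By region the median difference was -1.71 over midbrain and isthmus genes, -1.28 over thalamus and pretectum genes, -1.01 over GABA fate genes, -0.87 over Hox genes, -0.51 over monoamine and glycine genes and -0.14 over hypothalamic genes (-0.087 without EupTs66Yah replicate 16).

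**Figure D1:**
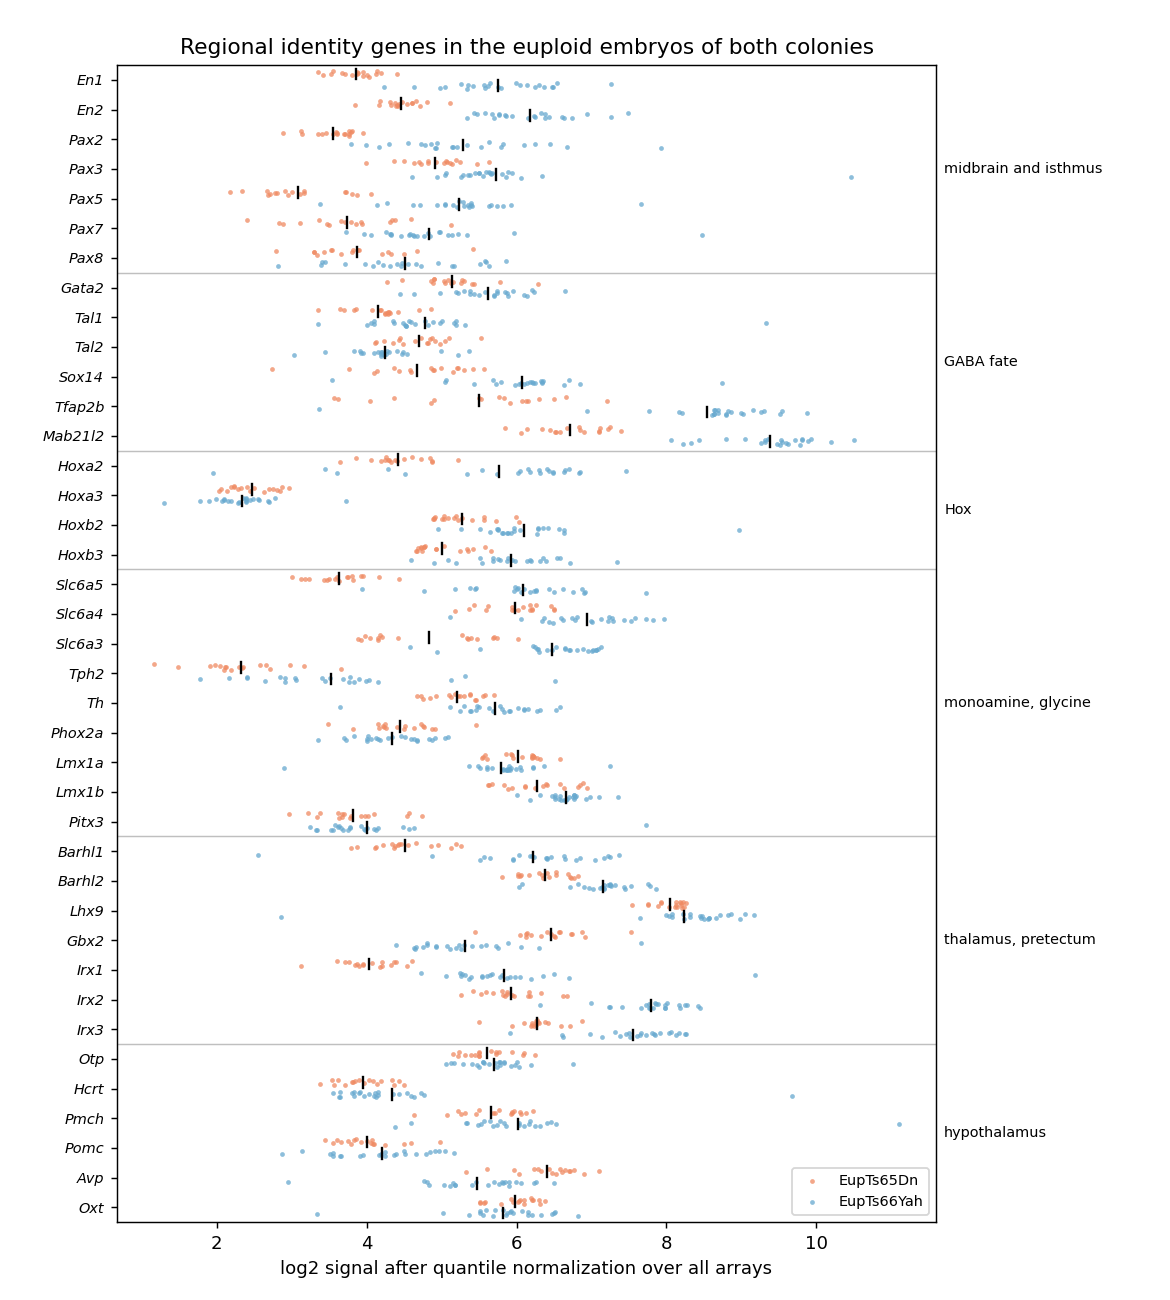
Log2 signal after quantile normalization (x axis) of each of the 39 regional genes (rows, grouped by region) in 18 EupTs65Dn and 24 EupTs66Yah embryos; points are embryos and black ticks group means. EupTs65Dn points lie left of EupTs66Yah points for most rows down to Irx3, Gbx2 and Avp lie the other way, and the lone far points are mostly EupTs66Yah replicate 16.

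All 7 midbrain and isthmus genes were lower in EupTs65Dn embryos. En2, an engrailed homeodomain factor of midbrain and cerebellum, ran from 3.84 to 5.11 with a median of 4.42 in EupTs65Dn, against 5.34 to 7.48 with a median of 6.19 in EupTs66Yah. The 2 ranges did not meet, and 18 of 18 EupTs65Dn embryos lay below all EupTs66Yah embryos (difference -1.71, SE 0.159, adjusted p = 3.5e-15). Such a separation was seen for 3 of the 39 genes and for 0.653% of all probe sets. En1, its paralogue, differed by -1.89 (SE 0.167), with 17 of 18 EupTs65Dn embryos below every EupTs66Yah embryo. Pax5, which with Pax2 maintains the isthmus, ran from 2.18 to 4.06 with a median of 2.98 in EupTs65Dn and from 3.38 to 7.67 with a median of 5.29 in EupTs66Yah. The highest EupTs66Yah value was that of replicate 16. The groups overlapped narrowly, and the difference of -2.15 (SE 0.190) was the tenth lowest of all probe sets. Pax2 differed by -1.73, and Pax7, a marker of the dorsal midbrain, by -1.11. Pax3, its dorsal neural tube paralogue, differed by -0.82 and Pax8 by -0.64 (adjusted p = 0.0011 and 0.0091). For Pax3 the highest EupTs66Yah value of 10.5 belonged to replicate 16, and without that array the difference was -0.62 (adjusted p = 4.4e-05).

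Among genes that specify GABA neurons or mark the tectum, 5 of 6 were lower. Tfap2b, an AP-2 factor of the midbrain and cerebellum, ran from 3.57 to 7.21 with a median of 5.80 in EupTs65Dn embryos. In EupTs66Yah embryos it ran from 3.36 to 9.88 with a median of 8.74, and the lowest value was that of replicate 16, the others starting at 6.94. Apart from that array the 2 groups met only at the edge. The means were 5.50 ± 1.05 and 8.54 ± 1.26 (SD, n = 18 and 24), 8.25 times lower in EupTs65Dn (difference -3.04, SE 0.347, adjusted p = 1.5e-11), the lowest of all 22206 probe sets. Mab21l2, a gene of the tectum and eye, ran from 5.85 to 7.39 with a median of 6.75 in EupTs65Dn and from 8.06 to 10.5 with a median of 9.52 in EupTs66Yah. No values overlapped, and the difference of -2.66 (SE 0.201, adjusted p = 1.9e-19) was the third lowest of all probe sets. Sox14, a marker of GABA neurons in the thalamus and pretectum, differed by -1.40. Gata2 and Tal1, which switch midbrain precursors to a GABA fate, differed by less, -0.48 (adjusted p = 0.0048) and -0.63 (adjusted p = 0.0088). The highest Tal1 value of EupTs66Yah, 9.33, was that of replicate 16, without which the difference was -0.44 (adjusted p = 0.0021), and with array SD as a covariate it was 0.14. Tal1 is also a factor of the blood lineage, and 2 of 7 erythroid markers were lower in EupTs65Dn with 0 higher and a list median of -0.096, against 1 lower and a median of -0.00039 without EupTs66Yah replicate 16. Tal2, the paralogue of Tal1 in the midbrain, was higher by 0.45 (adjusted p = 0.016), but by 0.10 with arrays centred on their medians (adjusted p = 0.59), and as deposited it differed by -0.90.

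Hox genes are defining markers of the hindbrain, and 3 of the 4 measured were lower. Hoxa2, the Hox gene with the most anterior limit, ran from 3.65 to 5.21 with a median of 4.35 in EupTs65Dn, against 1.95 to 7.47 with a median of 6.24 in EupTs66Yah. The lowest EupTs66Yah value was that of replicate 16. With that array included, the EupTs66Yah embryos spanned the whole range of the other group, so that no EupTs65Dn embryo lay below all of them. The difference was -1.34 (SE 0.263, adjusted p = 3.3e-05), and -1.52 without EupTs66Yah replicate 16. Hoxb3 differed by -0.92 and Hoxb2 by -0.82. Hoxa3 had 2.47 ± 0.303 in EupTs65Dn and 2.33 ± 0.441 in EupTs66Yah (SD, n = 18 and 24) and did not pass (difference 0.13, adjusted p = 0.38).

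Of 9 transmitter genes and regulators of monoamine and glycine neurons, 6 were lower. Slc6a5, the glycine transporter GlyT2 of brainstem and spinal cord neurons, ran from 3.01 to 4.44 with a median of 3.62 in EupTs65Dn and from 3.94 to 7.73 with a median of 6.14 in EupTs66Yah. Of the 18 EupTs65Dn embryos, 15 lay below every EupTs66Yah embryo (difference -2.45, SE 0.213, adjusted p = 1.5e-16, 5.48 times lower). Slc6a3, the dopamine transporter of midbrain neurons, differed by -1.65 (SE 0.206). The serotonin genes moved the same way, with Tph2, which makes serotonin in the raphe nuclei, at -1.20 and Slc6a4, the serotonin transporter, at -0.96. The serotonin transporter is also made for a time by thalamic neurons of the embryo. Th, the enzyme that commits tyrosine to dopamine and noradrenaline, differed by -0.51 and Lmx1b, a regulator of dopamine and serotonin neurons, by -0.39. Phox2a, a factor of noradrenaline neurons, had a difference of 0.11, Lmx1a, a factor of ventral midbrain and of roof plate and choroid plexus, of 0.23, and Pitx3, a factor of midbrain dopamine neurons, of -0.19 (adjusted p = 0.55, 0.24 and 0.45). Without EupTs66Yah replicate 16 the differences were 0.14 for Phox2a, 0.11 for Lmx1a and -0.03 for Pitx3.

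In the thalamus and pretectum list, 5 of 7 genes were lower, 1 was higher and 1 did not pass. The Iroquois genes Irx1, Irx2 and Irx3 are expressed behind the boundary that separates prethalamus from thalamus and on into midbrain and hindbrain. Irx1 ran from 3.12 to 4.60 with a median of 4.01 in EupTs65Dn and from 4.73 to 9.18 with a median of 5.66 in EupTs66Yah. The highest EupTs66Yah value was that of replicate 16, and these ranges did not overlap (difference -1.80, SE 0.198). Irx2 differed by -1.86 (SE 0.154), with 15 of 18 EupTs65Dn embryos below all EupTs66Yah embryos, and Irx3 by -1.28. Barhl1, known from cerebellar granule cells and the caudal hypothalamus, differed by -1.72 and Barhl2 by -0.78. Lhx9, a factor of thalamus and pretectum, turned on 1 array. Its difference was -0.19 (adjusted p = 0.52), and -0.42 (adjusted p = 0.00011) without EupTs66Yah replicate 16, which had 2.86 where the other 23 embryos ran from 7.65 to 9.16.

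Gbx2 went against the rest of its region. Known at this age from thalamic neurons, it ran from 5.44 to 7.52 with a median of 6.48 in EupTs65Dn. In EupTs66Yah it ran from 4.39 to 7.67 with a median of 5.21, the highest being replicate 16. All 18 EupTs65Dn embryos lay above the EupTs66Yah median (difference 1.14, SE 0.153, adjusted p = 4.2e-09), and without EupTs66Yah replicate 16 the difference was 1.25. As deposited, without quantile normalization, it was 0.15 (adjusted p = 0.27). In the hypothalamus, Avp, the antidiuretic hormone of magnocellular neurons, ran from 5.33 to 7.10 with a median of 6.49 in EupTs65Dn and from 2.94 to 6.50 with a median of 5.66 in EupTs66Yah, the lowest being replicate 16. It was higher by 0.93 (adjusted p = 2.8e-06), with 9 of 18 EupTs65Dn embryos above all EupTs66Yah embryos, and as deposited it differed by -0.14. The other 5 hypothalamic genes did not pass. Oxt, the hormone oxytocin, differed by 0.16 and Otp, a factor of neuroendocrine neurons, by -0.08. The peptides Hcrt (orexin) and Pmch (melanin-concentrating hormone) of the lateral hypothalamus differed by -0.38 and -0.36, and Pomc of the arcuate nucleus by -0.20, with adjusted p between 0.16 and 0.62 over the 5 genes. Without EupTs66Yah replicate 16 the differences were -0.15 for Hcrt, -0.14 for Pmch, -0.17 for Pomc, -0.04 for Otp and 0.05 for Oxt.

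Lists of other regional genes were set beside these, where again 17.3% of all probe sets were lower and 19.8% higher in EupTs65Dn. Of 33 further midbrain and hindbrain genes, 15 were lower and 4 higher in EupTs65Dn (median -0.32). The lowest were Hoxa5 at -2.24, Pou4f1 at -2.06, Sncg at -1.91 and Dmbx1 at -1.25. The 4 higher genes were Helt at 0.45, Egr2 at 0.34, Cck at 0.32 and Nr4a2 at 0.25. Of 31 further diencephalic genes, 4 were lower and 7 higher (median 0.036). Without EupTs66Yah replicate 16, 8 were lower and 8 higher (median 0.011), where 5378 and 5773 of all 22206 probe sets were. The largest changes were Isl1 at 1.75, Fezf1 at 1.48, Rax at 0.83 and Prox1 at 0.74, and among the lower genes Cartpt at -0.65. Without EupTs66Yah replicate 16 these were 1.53, 1.29, 0.79, 0.54 and -0.55. Isl1 is also a gene of striatal neurons. Of 24 telencephalic genes, 1 was lower, Emx2 at -0.68, and 14 were higher (median 0.357), with Dlx5 at 1.82, Neurod2 at 1.36, Dlx1 at 0.87 and Lhx6 at 0.81. The telencephalic mean on the quantile scale was 8.07 ± 0.0696 in EupTs65Dn and 7.65 ± 0.281 in EupTs66Yah (SD, n = 18 and 24), or 7.70 ± 0.128 without EupTs66Yah replicate 16 (n = 23), and its part in the differences of the regional genes was not tested.

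No gene of the list passed the threshold between trisomic and euploid embryos in either colony. In Ts65Dn against EupTs65Dn forebrain, 0 of 39 genes were called, where 109 or 0.491% of all probe sets were, and 2 had an unadjusted p under 0.05, as did 5.79% of all probe sets. Tal1 ran from 3.05 to 4.34 with a median of 3.83 in Ts65Dn embryos and from 2.53 to 4.19 with a median of 3.51 in EupTs65Dn embryos, on the deposited scale. The groups overlapped over most of their range, with a difference of 0.36 (SE 0.107, p = 0.0018, adjusted p = 0.25). Pomc had 3.54 ± 0.418 in Ts65Dn and 3.25 ± 0.433 in EupTs65Dn (SD, n = 23 and 18; difference 0.30, adjusted p = 0.80). Over the 39 genes the median difference was 0.064, against -0.002 over all probe sets, and 26 had the higher mean in Ts65Dn. The genotype label itself could be read in these samples, since 38 of 41 triplicated chromosome 16 genes were called higher.

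In Ts66Yah against EupTs66Yah forebrain, 0 of 39 genes were called, where 38 or 0.171% of all probe sets were. Without EupTs66Yah replicate 16 the count was again 0 of 39, where 207 or 0.932% of all probe sets were called. Triplicated chromosome 16 genes were called in 17 of 41 cases with that array and in 38 of 41 without it. Pax5 came nearest. It ran from 5.12 to 6.85 with a median of 6.14 in Ts66Yah embryos and from 4.16 to 6.77 with a median of 5.81 in EupTs66Yah embryos, as deposited. Both groups covered much the same range, with a difference of 0.39 (SE 0.139, adjusted p = 0.36). Without replicate 16 the difference was 0.43 (adjusted p = 0.14), and without Ts66Yah replicate 12 as well it passed at 0.48 (adjusted p = 0.064). Pax8 differed by 0.50 (SE 0.184, adjusted p = 0.37). Over the 39 genes the median difference was 0.114 against 0.043 over all probe sets, and 22 of 26 midbrain, hindbrain and monoamine genes had the higher mean in Ts66Yah, with 5 of 6 hypothalamic genes the other way. Over all probe sets, 13021 of 22206 had the higher mean in Ts66Yah.

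The difference between the genotype effects was tested directly, and 0 of 39 genes were called, where 2 or 0.00901% of all probe sets were. Of the listed genes, 2 had an unadjusted p under 0.05, as did 7.05% of all probe sets. For Pomc the Ts65Dn effect exceeded the Ts66Yah effect by 0.54 (SE 0.200, p = 0.0084, adjusted p = 0.65). For Pitx3 the excess was 0.50 (SE 0.208, p = 0.019, adjusted p = 0.67). The midbrain, hindbrain and thalamic genes that separated the colonies in euploid embryos thus showed no called genotype effect, and no called difference of effects, at this number of embryos.

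**Figure D2:**
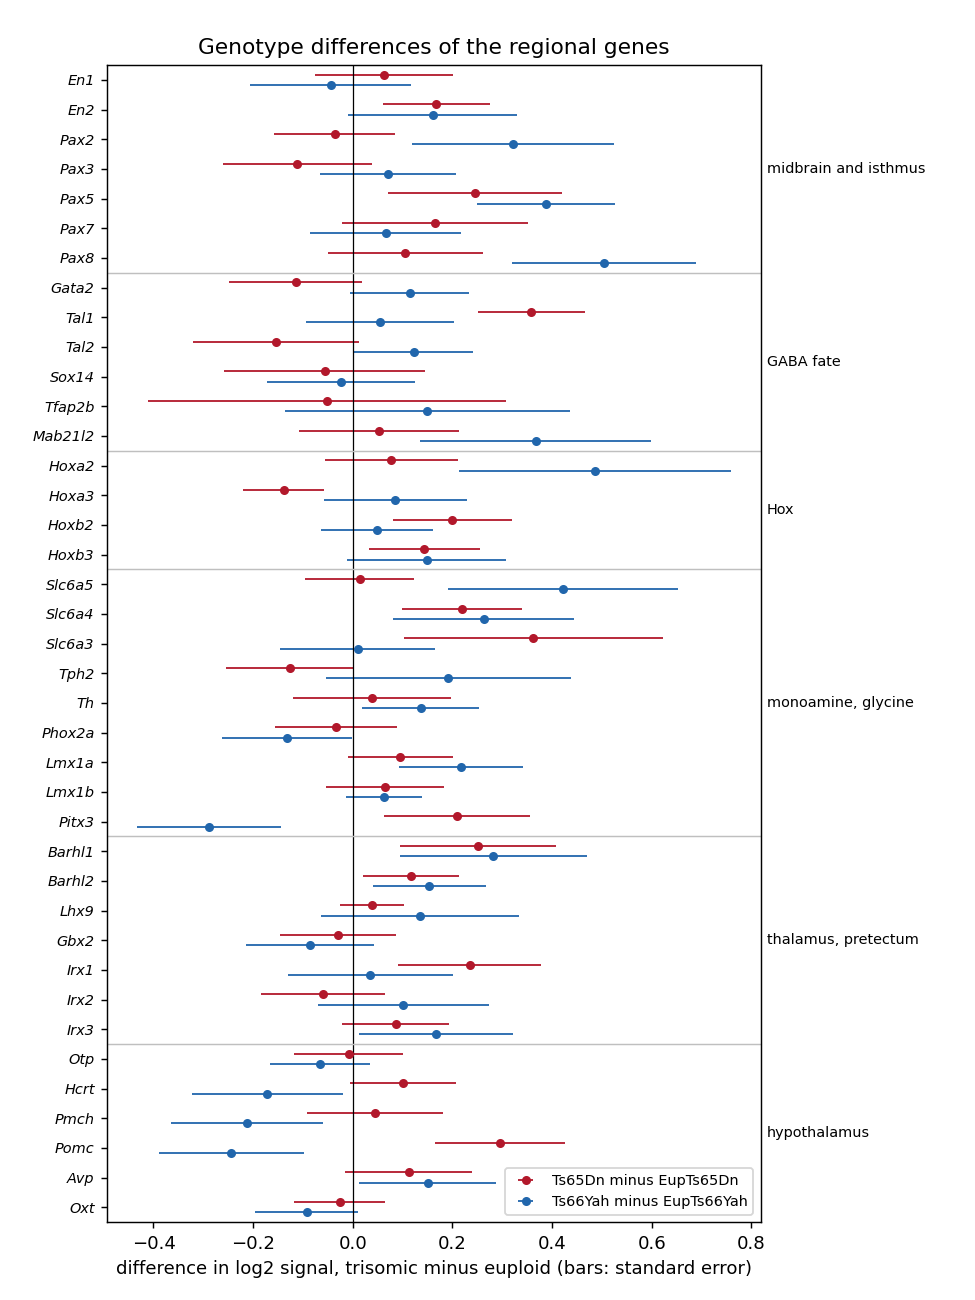
Difference in log2 signal, as deposited, between trisomic and euploid embryos of each colony (x axis) for the 39 regional genes (rows); points are limma estimates and bars standard errors, with 23 Ts65Dn against 18 EupTs65Dn and 24 Ts66Yah against 24 EupTs66Yah embryos. Estimates lie between -0.29 and 0.50 and none passed an adjusted p of 0.1.

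**Figure D3:**
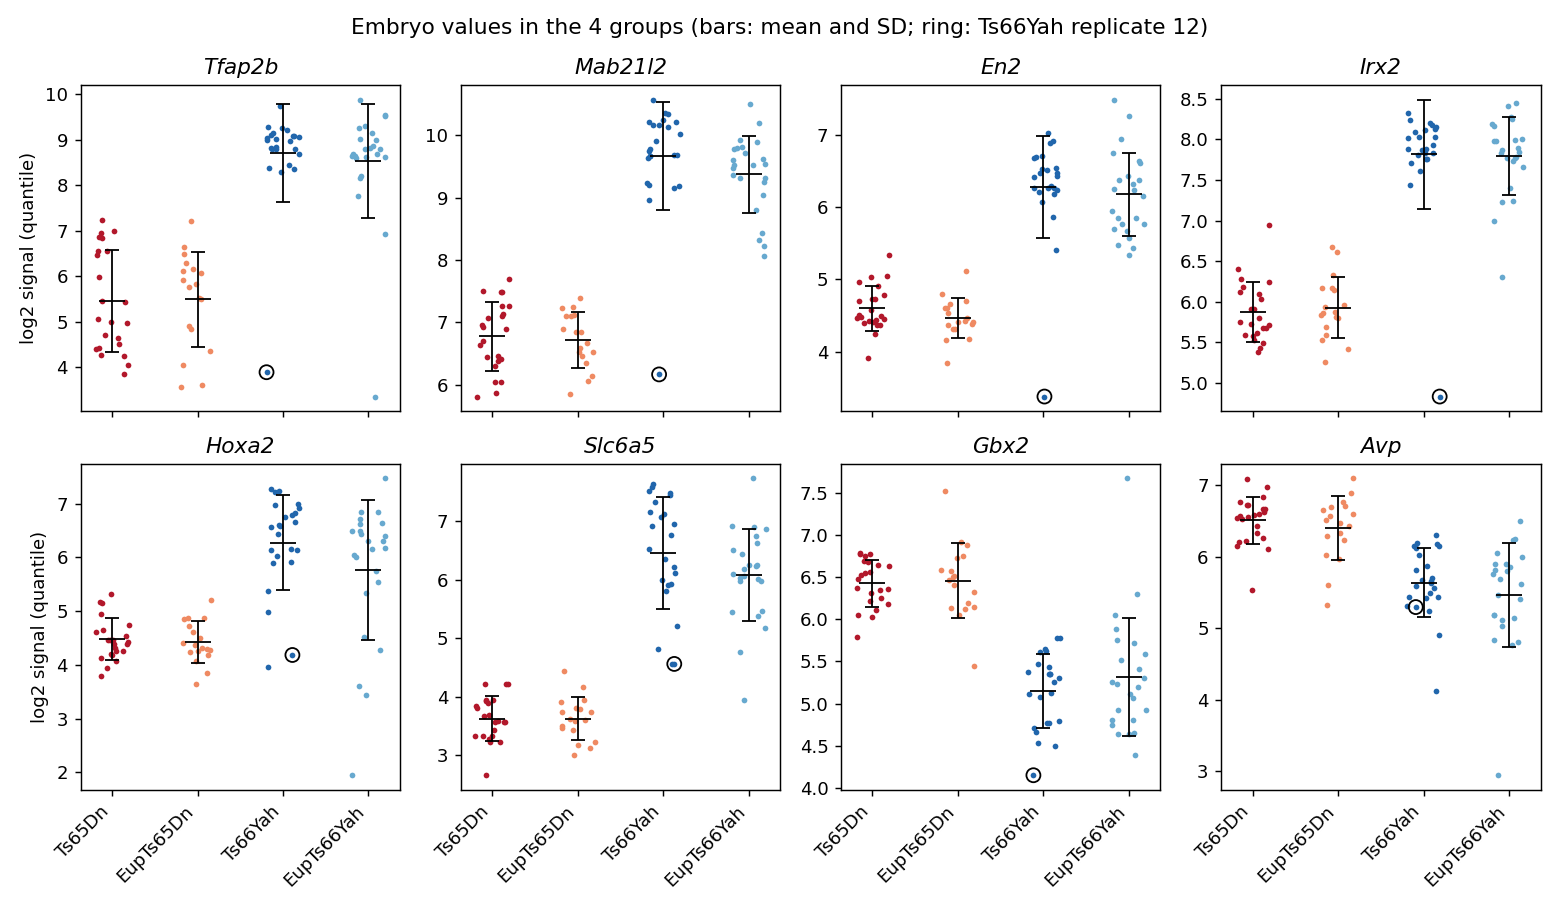
Log2 signal after quantile normalization (y axis) of 8 regional genes in every embryo of the 4 groups; points are embryos, bars mean and SD, and the ring marks Ts66Yah replicate 12. For Tfap2b, Mab21l2, En2, Irx2, Hoxa2 and Slc6a5 both groups of the Ts65Dn colony lie low, Gbx2 and Avp show the opposite order, and the ringed embryo lies within or below the range of the Ts65Dn colony for Tfap2b, Mab21l2, En2 and Irx2.

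Litters were then compared within each colony. In the Ts65Dn colony 0 of 39 genes were called across the 6 litters, where 84 or 0.378% of all probe sets were (limma F test with genotype in the fit), and 4 genes had an unadjusted p under 0.05, as 10.7% of all probe sets did, so their number was close to the background. Tfap2b came first (p = 0.0032, adjusted p = 0.21). Its litter means, as deposited, were 5.81 ± 0.890 (SD, n = 7) in litter TS113, 5.62 ± 1.09 (n = 7) in TS42, 4.94 ± 1.03 (n = 7) in TS125, 4.69 ± 1.44 (n = 6) in TS137, 4.14 ± 0.719 (n = 7) in TS11 and 3.92 ± 0.706 (n = 7) in TS18. The SD within a litter thus ran from 0.706 to 1.44 for this gene. Hoxa2 (p = 0.0046), Slc6a5 (p = 0.0083) and Pax7 (p = 0.047) had adjusted p of 0.23, 0.28 and 0.46. In the Ts66Yah colony 0 of 39 genes were called by limma, as were 0% of all probe sets, although 3.87% of probe sets had an unadjusted p under 0.05. Hoxa2 and Irx1 were the listed genes among them (p = 0.026 and 0.025, adjusted p = 0.98 for both).

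Regional genes varied more from embryo to embryo than most probe sets did. The probe sets were not matched for signal, and 11 of 39 genes in the Ts65Dn colony and 17 in the Ts66Yah colony lay at or above the median signal. The part of low signal in the spread was not tested. After subtracting group means, the SD over embryos exceeded that of the median probe set for 35 of 39 genes in the Ts65Dn colony and for 36 of 39 in the Ts66Yah colony without EupTs66Yah replicate 16. Among the most variable 10% of all probe sets were 9 of the genes in the Ts65Dn colony and 17 in the Ts66Yah colony. In the Ts65Dn colony Tfap2b had the widest spread of the list, with an SD of 1.19, then Slc6a3 with 0.859 and Sox14 with 0.665, where the median probe set had 0.322. In the Ts66Yah colony Hoxa2 came first with 0.913, then Tfap2b with 0.863, Slc6a5 with 0.843 and Tph2 with 0.833, where the median probe set had 0.318. Without Ts66Yah replicate 12 the SD of Tfap2b was 0.503 and that of Hoxa2 0.873, and 12 genes were among the most variable 10%.

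Ts66Yah replicate 12, from litter WT13, stood apart in these genes. It was the lowest of 24 Ts66Yah embryos for 20 of 39 genes and the highest for 0, where 7.52% of all probe sets were lowest in it. Tfap2b had 4.55 in this embryo, against 8.73 to 10.2 in the other 23 (9.38 ± 0.338, SD), a gap of -4.83 to their mean. Mab21l2 had 6.58, against at least 9.44 in each of the others. Irx2 had 5.37, against 7.90 to 8.80, and En2 had 4.02, against 5.93 to 7.51. Each of these 4 genes lay well outside the range of all other embryos of the genotype. Irx1 was 2.61 below the mean of the others (gap -2.61), Barhl1 2.27 below (-2.27), and Slc6a4 and Tph2 2.19 below (-2.19 each). By region, the embryo was lowest for 6 of 7 thalamus and pretectum genes, 4 of 7 midbrain and isthmus genes, 4 of 6 GABA fate genes, 5 of 9 monoamine and glycine genes and 1 of 4 Hox genes, and for 0 of 6 hypothalamic genes. Its hypothalamic list mean of 5.42 was nevertheless the second lowest of 24, against a median of 5.66 in the others. It was also lowest for 12 of 33 further midbrain and hindbrain genes and for 6 of 31 further diencephalic genes. Telencephalic genes lay the other way, with 10 of 24 highest in this embryo and 1 lowest, where 5.86% of all probe sets were highest in it. Their list mean of 8.43 ranked 23 of 24 from the lowest, against a median of 8.14 in the others. Among lists of other cell types, the choroid plexus mean ranked 2 of 24 from the lowest (6.70 against a median of 7.23 in the others, with 3 of 8 genes lowest), the endothelial mean 2, the meninges mean 5, the pituitary mean 7, the skin and cartilage mean 10, and the erythroid and skeletal muscle means 12. The part of these lists was not tested. Its triplicated chromosome 16 mean ranked 9 of 24. On the quantile scale its values were 3.90 for Tfap2b, 6.16 for Mab21l2, 3.38 for En2 and 4.83 for Irx2, each within or below the range of the EupTs65Dn embryos. Whether this sample was dissected differently was not tested.

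Other embryos of the colony were low in part of the list only. EupTs66Yah replicate 22 had 7.30 for Tfap2b, against a group median of 9.18, 4.29 for Sox14, 6.68 for Irx2 and 5.62 for Slc6a4. Its mean deviation was -1.22 over the GABA fate genes and -0.77 over the thalamus and pretectum genes, with 0.45 over the hypothalamic genes. Ts66Yah replicate 21 showed another pattern. It had 4.55 for Hoxa2, against a group median of 7.02, and 5.13 for Slc6a5, against 7.12, the lowest of its group in both. Its Mab21l2 (9.44) and En2 (5.93) were the lowest after replicate 12 and its Irx2 (8.08) the third lowest, while its Tfap2b was 9.73, above the group median of 9.45. EupTs66Yah replicates 15 and 17 were low in Hoxa2 as well, with 4.04 and 5.03 against a group median of 6.70. A EupTs66Yah embryo of litter WT13 was also low in Hoxa2, with 4.26. EupTs66Yah replicate 17 had the group's highest Tfap2b at 10.2. At the other end, Ts66Yah replicates 4 and 19 were each highest of their group for 8 genes, where 3% and 5.04% of all probe sets were highest in them. EupTs66Yah replicate 16 was lowest for 13 genes and highest for 15, where 43.2% and 35.6% of all probe sets were, and is left out of the correlations. In the Ts65Dn colony no embryo was lowest of its group for more than 7 genes, the count of Ts65Dn replicate 14, in which 4.54% of all probe sets were lowest.

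**Figure D4:**
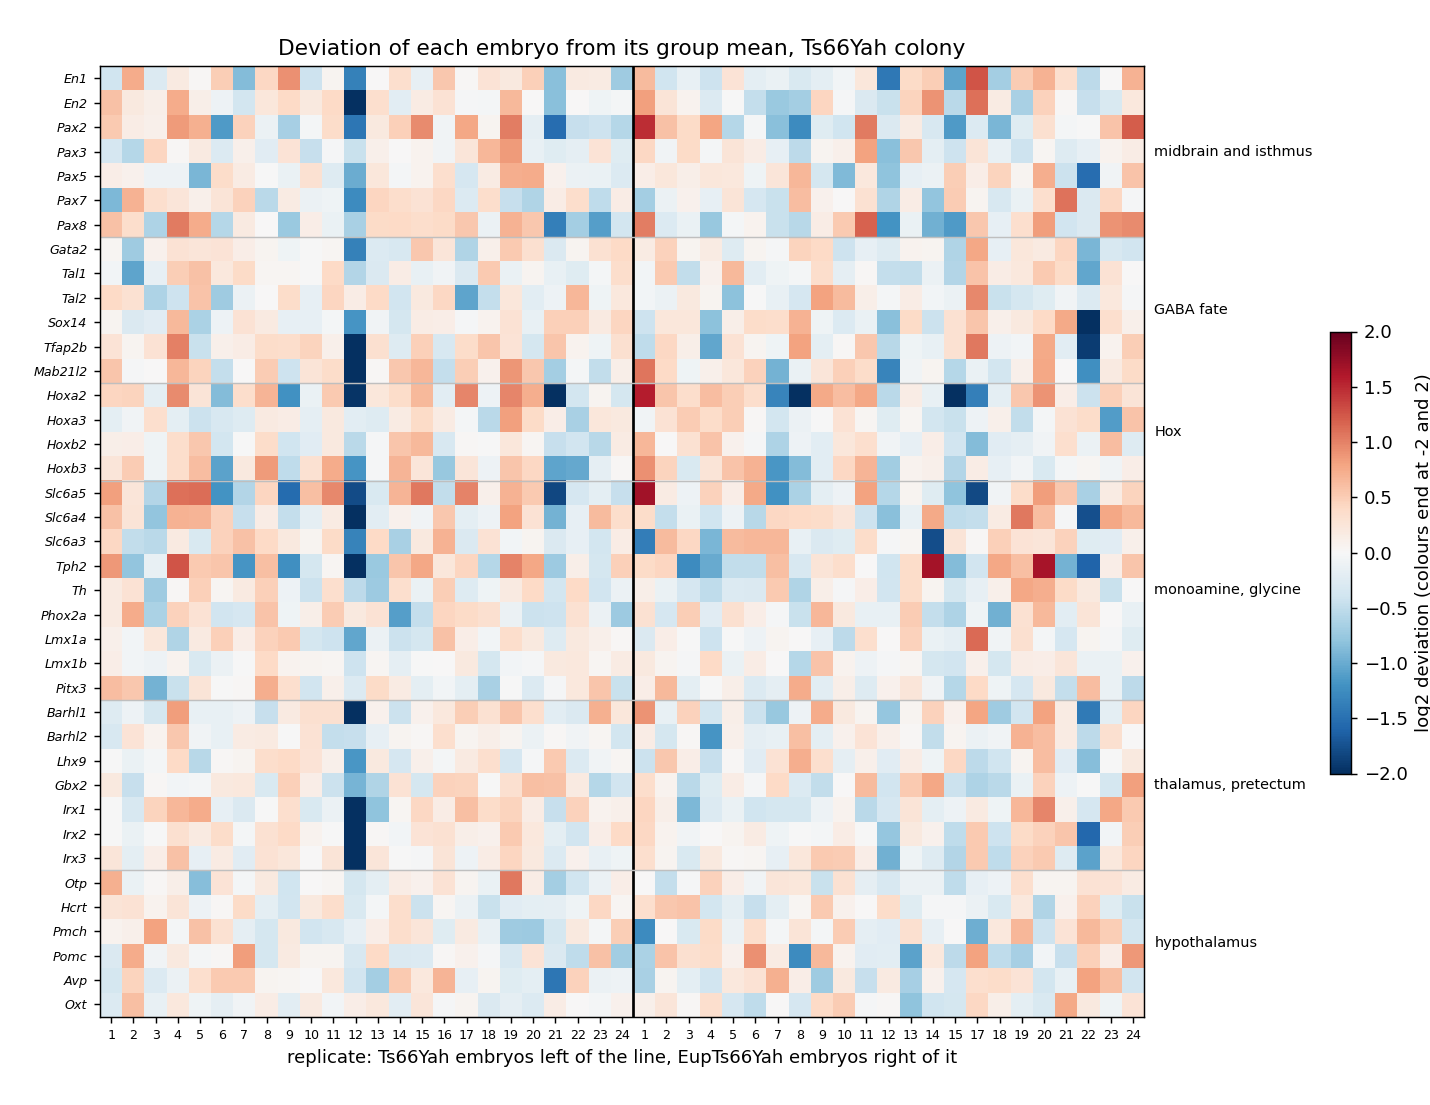
Deviation of each embryo from its group mean in log2 units (colour, ending at -2 and 2) for the 39 regional genes (rows) in 24 Ts66Yah embryos and, right of the line, 23 EupTs66Yah embryos without replicate 16. Ts66Yah replicate 12 is blue through most rows above the hypothalamus, EupTs66Yah replicate 22 in Sox14, Tfap2b, Slc6a4, Tph2 and Irx2, and Ts66Yah replicate 21 in Hoxa2, Slc6a5, Pax2 and Pax8.

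Pairs of genes with a known tie were correlated over embryos after subtracting group means, with 16 of 22 listed pairs measured in each colony (permutation tests with 100000 resamples, smallest p 1e-05, Benjamini-Hochberg over 32 tests). In the Ts66Yah colony (n = 47 embryos) 6 pairs passed. Slc6a4 and Tph2, both needed by serotonin neurons, had r = 0.74 and rho = 0.70 (p = 1e-05 and adjusted p = 8e-05 for r, p = 1e-05 and adjusted p = 0.00016 for rho), and r = 0.64 without the 2 embryos farthest from the median of Slc6a4. Hoxb2 and Hoxb3, neighbours in 1 cluster, had r = 0.65 and rho = 0.69 (same adjusted p values by permutation), and r = 0.69 without the 2 farthest. Tal1 and Gata2 had r = 0.61 and rho = 0.49 (adjusted permutation p = 8e-05 and 0.0038), and En1 and En2 had r = 0.60 and rho = 0.50 (adjusted permutation p = 8e-05 and 0.0038), with r = 0.49 and 0.52 without the 2 farthest. Irx1 and Irx2, also in 1 cluster, had r = 0.71 and rho = 0.57 (adjusted permutation p = 0.00038 and 0.00053), but r = 0.43 without the 2 farthest and r = 0.41 without Ts66Yah replicate 12 (adjusted p = 0.029). Pomc with Cga, a hormone subunit of the pituitary, had r = 0.39 and rho = 0.32 (adjusted permutation p = 0.038 and 0.12), and r = 0.36 without the 2 farthest (adjusted p = 0.11).

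In the Ts65Dn colony (n = 41 embryos) 2 pairs passed, and neither passed with Spearman correlation or without the 2 farthest embryos. Both passed with litter means subtracted as well (adjusted permutation p = 0.013 for Irx1 with Irx2 and 0.0018 for Th with Slc6a3). There r was 0.46 and 0.54. Irx1 and Irx2 had r = 0.46 and rho = 0.36 (adjusted permutation p = 0.014 and 0.10), and r = 0.29 without the 2 farthest embryos (adjusted p = 0.32). Th and Slc6a3, both marks of dopamine neurons, had r = 0.44 and rho = 0.34 (adjusted permutation p = 0.017 and 0.12), and r = 0.22 without the 2 farthest (adjusted p = 0.43). Slc6a4 and Tph2 had r = -0.28 in this colony (rho = -0.38, adjusted permutation p = 0.25 and 0.10). Tph2 was dim here, with litter means from 1.44 to 1.90 where the median probe set had 5.31. Whether a correlation differed between the colonies was not tested.

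All 741 pairs of the 39 genes were then run in both colonies, a step added after the listed pairs were seen, with adjustment over 1482 tests. The median r was 0.046 in the Ts65Dn colony, with 28 positive and 5 negative pairs called, and 0.157 in the Ts66Yah colony, with 182 positive and 2 negative. Without Ts66Yah replicate 12 the median was 0.093, with 84 positive and 6 negative, so that more positive pairs were called with that embryo than without it. Hoxa2 and Slc6a5, the closest pair once that embryo was left out, had r = 0.84 and rho = 0.81 in the Ts66Yah colony (permutation p = 1e-05 for rho, adjusted p = 0.00045 for r), r = 0.82 without replicate 12 and r = 0.89 without the 2 farthest embryos. Ts66Yah replicates 21, 12, 9 and 6 were the 4 lowest of their group in both genes, in that order. Slc6a5 was the second nearest of 22205 other probe sets to Hoxa2. Pax2 with Hoxa2 (r = 0.80, 0.78 without replicate 12), Pax2 with Slc6a5 (0.78, 0.75), Hoxb2 with Slc6a5 (0.75, 0.73), Hoxb3 with Hoxa2 (0.75, 0.72) and Mab21l2 with Slc6a5 (0.74, 0.77) followed, with rho from 0.69 to 0.86 and an adjusted permutation p of 0.00045 each for r.

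Tectal and pretectal genes gave other close pairs. Irx2 and Irx3 had r = 0.86 and rho = 0.58 in the Ts66Yah colony (permutation p = 1e-05 and 8e-05), and r = 0.74 without replicate 12, and 8 of the 20 probe sets nearest to Irx2 were listed genes with or without that embryo. Irx2 with Mab21l2 and Irx2 with Tfap2b had r = 0.82 each but rho = 0.48 and 0.25, and without replicate 12 r was 0.60 and 0.52. Tfap2b with Mab21l2 had r = 0.72 and rho = 0.22, and r = 0.32 without that embryo (adjusted p = 0.28), so that the relation rested on it. Sox14 with Tfap2b had r = 0.70 with it and 0.77 without it. Among the 15 pairs of hypothalamic genes the median r was 0.009 and 0 were called. In the Ts65Dn colony Tfap2b and Mab21l2 formed the closest pair, with r = 0.69 and rho = 0.68 (adjusted permutation p = 0.00045), and r = 0.69 without the 2 farthest embryos. Slc6a3 followed with Mab21l2 (r = 0.62, rho = 0.59) and with Tfap2b (r = 0.61, rho = 0.57), and Irx2 with Tfap2b had r = 0.55 and rho = 0.55 (adjusted permutation p for r = 0.0013, 0.0013 and 0.0047). Hoxa2 and Slc6a5 had r = -0.14 here (adjusted p = 0.76). Both were dim in this colony, with litter means from 3.35 to 4.18 for Hoxa2 and from 2.54 to 3.12 for Slc6a5. The median probe set had 5.31, and the part of low signal in the missing correlation was not tested. These correlations share arrays and depth of hybridization, and they describe embryos of 1 colony at a time.

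**Figure D5:**
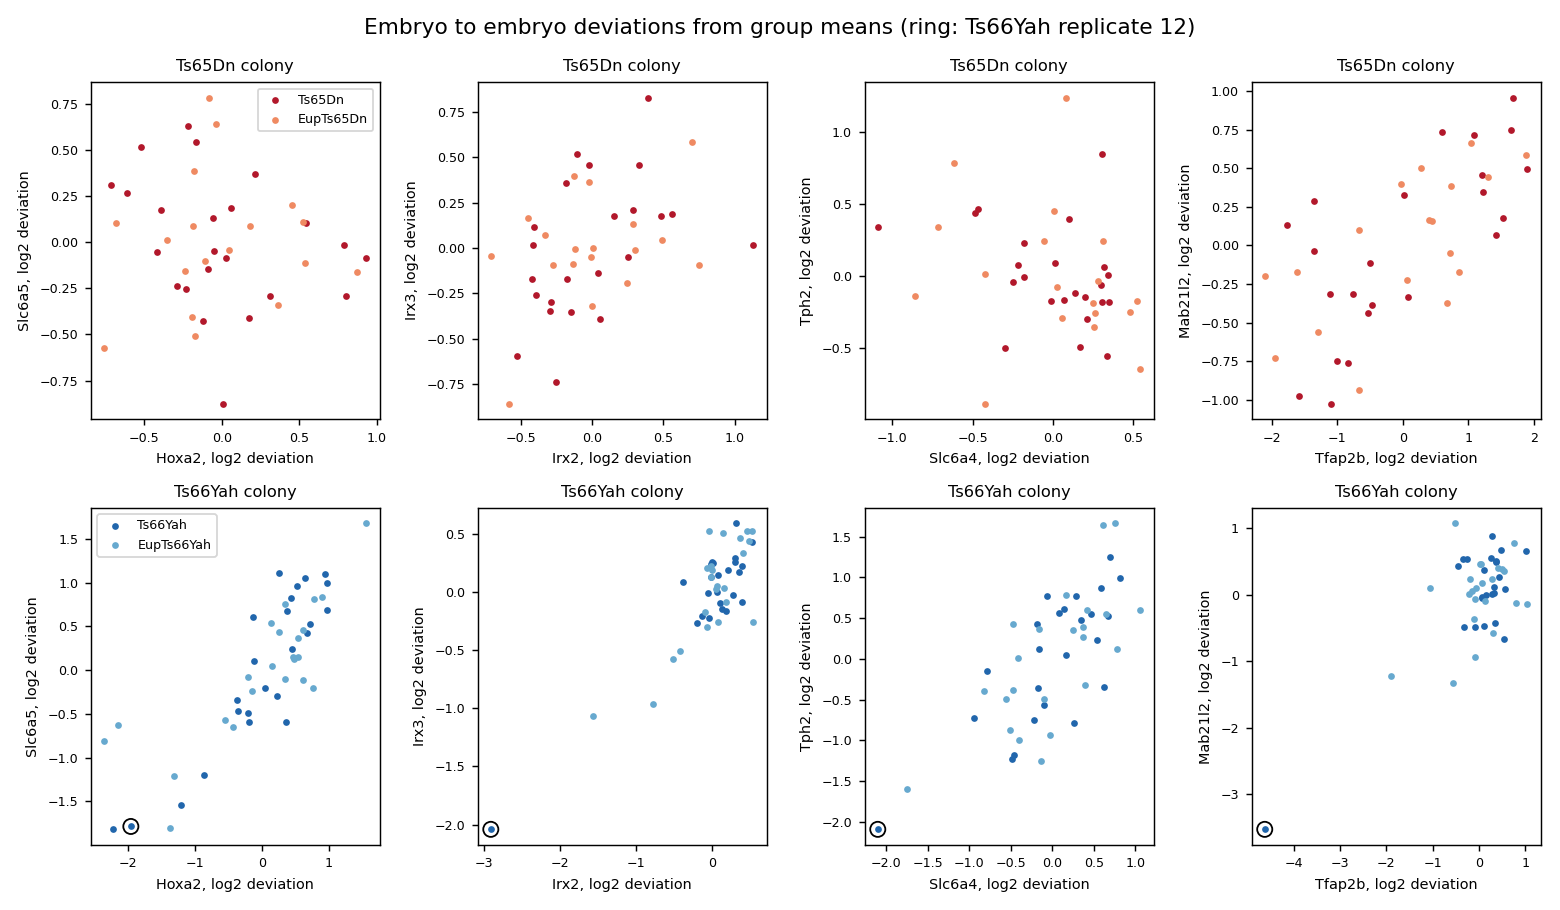
Deviation from the group mean in log2 units, as deposited, of 4 gene pairs (one gene on each axis) in the Ts65Dn colony (top, 41 embryos) and the Ts66Yah colony (bottom, 47 embryos); each point is an embryo and the ring marks Ts66Yah replicate 12. Hoxa2 and Slc6a5 rise together in the Ts66Yah colony (r = 0.84) and not in the Ts65Dn colony (r = -0.14), where both genes were dim. Tfap2b and Mab21l2 rise together in the Ts65Dn colony (r = 0.69). The Irx2 and Irx3 panel of the Ts66Yah colony is stretched by the ringed embryo.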

How the data were processed

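Per the labels and the submitters' processing notes, RNA of E18.5 forebrain from 89 embryos was hybridized to Clariom S arrays and summarised with RMA by the submitters. The deposited values are log2 signals per probe set, and no further step by the authors is named in the labels. Probe sets were named from the platform annotation (19572 of 22206 with 1 symbol, 2634 with none). The listed genes and the other gene lists were chosen with earlier results of these data known. All 43 listed genes are accounted for. Those past a threshold or at or above the median signal are described with values, and pairs are named if they pass. Of each other regional list, up to 4 passing genes with the largest change in each direction are named. Genotype groups were compared within a colony on deposited values, and euploid groups after quantile normalization over all 89 arrays, with lmFit and eBayes of limma 3.58.1 in R 4.3.3 (two-sided, Benjamini-Hochberg over 22206 probe sets, threshold 0.1, after the 10% false discovery rate of the series). Correlations used two-sided permutations within groups in Python 3.11.15 with numpy 2.4.6 and scipy 1.17.1. The genotype fits within each colony, the litter test of the Ts65Dn colony and a correlation were tried on simulated normal values. The comparison of the euploid groups after quantile normalization was not simulated. Litters come from the dam named in the source label and served as a block in an alternative fit, while replicate numbers follow sample order and pair no embryos. Arrays of 18 to 24 embryos a group limit the precision. No detection call was used, so a low signal is not read as absence. Other alternatives were the unpaired t-test of the series, filters, normalizations, covariates, array weights and left-out arrays, of which those that leave out Ts66Yah replicate 12 and the run over all pairs were chosen after seeing the data.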

Additional observations from a re-analysis of the deposited data

How the results depend on the processing

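Over 155 recomputations of the 8 counts of called genes or pairs, 146 kept the result. Kept means a count within a fixed ratio of the main count, or 0 in both, and not an unchanged count. Counts from 28 to 37 genes between the euploid groups were thus all taken as kept. With litter as a replicate block, 0 listed genes were called in Ts65Dn against EupTs65Dn, in Ts66Yah against EupTs66Yah and for the contrast of the 2 effects, and 29 in the euploid comparison (random block), while pairs stood at 2 in the Ts65Dn colony and 8 in the Ts66Yah colony. Leaving out each litter in turn gave 29 to 30 genes between the euploid groups and 0 in every other comparison. The marginal criterion of the series (p under 0.01 and a ratio under 0.8 or over 1.2) called 1 gene in Ts65Dn (Tal1), 2 in Ts66Yah (Pax5 and Pax8) and 1 for the difference of effects. In Ts66Yah, 1 gene (Pax5) passed with array weights (0.44, adjusted p = 0.094), without the arrays with Y-linked signals contrary to the labelled sex (0.52, adjusted p = 0.092) and without Ts66Yah replicate 12 and EupTs66Yah replicate 16 (0.48, adjusted p = 0.064), by limma. Between the euploid groups a filter at the median signal left 8 called genes, since fewer genes were tested, and other settings gave 28 to 37. The share of all probe sets called also changed between settings, so these counts alone do not measure how far the listed genes stand out. The main fit called 3839 of 22206 probe sets lower in EupTs65Dn and 4402 higher. Without EupTs66Yah replicate 16 these were 5378 and 5773. Of 633 recomputed differences of single genes there, 597 kept direction and side of the threshold, and 24 genes never changed. With array SD as a covariate Pax3 turned to 0.0057, Tal1 to 0.14, Pitx3 to 0.46, Hcrt to 0.53 and Pmch to 0.54. As deposited, the median difference over all probe sets was -1.05. There Tal2 turned to -0.90, Hoxa3 to -1.08, Phox2a to -1.23, Lmx1a to -0.83, Avp to -0.14 and Oxt to -0.90. Tal2 missed the threshold with arrays centred on their medians (0.10), without the arrays against the sex label (0.34) and with array SD as a covariate (0.28). With Spearman correlation, and without the 2 farthest embryos, 0 pairs passed in the Ts65Dn colony. The cause of these changes was not tested beyond what is said. The unpaired t-test was not run for the difference of effects or the litter tests. The number of embryos and dim probe sets, for which no background signal was used, limit what small differences could be called.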
